A study of Oreochromis mossambicus with 6 samples.

Results

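Aquaporins are membrane channels that pass water and, in some members, glycerol, urea or ammonia. In the fish gill they sit in epithelium that separates blood from the surrounding water, and Aqp3 is known from the basolateral membrane of ionocytes of Mozambique tilapia, the cells that take up or secrete ions. Vertebrate aquaporins fall into water channels proper (the Aqp1 and Aqp4 types), aquaglyceroporins that also pass glycerol (Aqp3, Aqp7, Aqp9 and Aqp10), the ammonia- and water-permeable Aqp8, and the divergent Aqp11 and Aqp12, of which mammalian AQP11 lies in the endoplasmic reticulum. The aquaporins described here were the genes of the deposited count table whose symbol begins with aqp and a digit, in upper or lower case, and which had at least 10 counts summed over all libraries. There were 9 such genes among 14 aquaporin symbols, 24878 genes with at least 10 counts and 32591 genes in all. The symbols are printed as the table gives them, so that AQP3 and aqp3a, or AQP4 and aqp4, name separate genes, and genes without a symbol were not searched for aquaporins.

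Gill filament RNA came from 6 hypophysectomized male, wild-type Mozambique tilapia, 80 to 110 g by the sample labels. Of these fish, 3 were injected intraperitoneally with ovine prolactin (oPrl) at 5 μg per g body weight and 3 with saline vehicle. All 6 lacked the pituitary, which makes prolactin and also the hormones that drive cortisol release and growth. The oPrl group is thus a model of prolactin replacement, the vehicle group is its control without it, and neither stands for an intact fish. After 5 days of recovery at 12 ppt, 3 injections were given 48 h apart and filaments were taken 24 h after the last. The comparison asks which gill transcripts prolactin alters. In the study's full experiment, of which these fish are a subset, plasma osmolality was higher after oPrl than after vehicle. Its part in the values below was not tested. The fish were not fed during recovery and injections. Ages are not given.

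The oPrl libraries held 30516271 to 32959492 counts on genes and the vehicle libraries 21643589 to 35976655. Levels are given as CPM, read counts brought to a common library size with edgeR's TMM factors, and 1 count was worth 0.0283 to 0.0307 CPM with oPrl and 0.0284 to 0.0509 CPM with vehicle. Gene lengths were not at hand, so a level of one gene was not compared with that of another except as a share of reads. Markers of gill cell types were present in every library, among them the ionocyte factor foxi3b at 149 to 170 CPM with oPrl and 118 to 162 CPM with vehicle, and the epithelial adhesion gene epcam at 1318 to 1744 CPM with oPrl and 1611 to 2371 CPM with vehicle. The library of oPrl replicate 2 was low in some vascular genes. Its 12 endothelial and pillar cell markers, of which all were detected, summed to 377 CPM, against 829 and 819 CPM in oPrl replicates 1 and 3 and 528 to 730 CPM with vehicle. It was the lowest library in 7 of the 12 genes, and most of the gap to the other oPrl libraries came from vwf and cldn5b, whereas kdrl was highest there at 29.7 CPM. The value of AQP3, which was highest in this library, is therefore also given without it.

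By edgeR's quasi-likelihood test none of the 9 aquaporins was past the thresholds the study used with DESeq2, which ask for an adjusted p below 0.01 together with a log2 fold change beyond 1 in either direction. Of all genes tested, 1.40% were past both, 0.715% higher and 0.687% lower with oPrl. At an unadjusted p under 0.05 edgeR gave 1 aquaporin, AQP3, compared with 21.7% of all genes, and DESeq2, the study's own test, called the same gene at both thresholds, compared with 6.01% of all genes. In AQP3 alone the oPrl and vehicle libraries did not overlap, a separation seen in 29.0% of all genes tested, with oPrl above in 16.3% and below in 12.7%. The median log2 fold change, oPrl over vehicle, was 0.08 over the 9 aquaporins and 0.02 over all genes, and the median absolute log2 fold change was 0.42 and 0.43. By both measures the family as a whole lay close to the rest of the genes, with AQP3 as the member farthest from 0.

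Among the aquaglyceroporins, AQP3 (ENSONIG00000029850) had 11.9, 30.9 and 21.0 CPM in oPrl replicates 1, 2 and 3, against 5.47, 2.67 and 4.27 CPM in vehicle replicates 1, 2 and 3. The lowest oPrl-injected fish thus stood above the highest vehicle-injected fish, and the 3 oPrl fish differed more among themselves than the 3 vehicle fish did. Means of AQP3 (± SD, n = 3 each) were 21.3 ± 9.47 CPM after oPrl and 4.14 ± 1.40 CPM after vehicle. This is a 5.16-fold difference, or 2.37 on the log2 scale (SE 0.41, 95% interval 1.40 to 3.34) (adjusted p = 0.0201, quasi-likelihood test of edgeR). That p lies above 0.01 and below 0.05, a level that AQP3 passed as 1 of the 9 aquaporins and that 6.11% of all genes passed (3.28% higher and 2.83% lower with oPrl), or 4.61% when the fold threshold was kept. DESeq2 gave a log2 fold change of 2.33 (adjusted p = 1.74e-06). Apart from the sum with aqp3a given further on, the alternatives tried gave AQP3 an adjusted p of 1.74e-06 to 0.0726, and DESeq2 was the single one of them under 0.01. When single libraries were dropped its log2 fold change stayed between 1.999 and 2.65 (adjusted p of 0.0226 to 0.0726, edgeR), and the lower end was reached without oPrl replicate 2, the library with the low vascular sum. In bulk RNA such as this, more AQP3 RNA per cell and more cells with AQP3 cannot be told apart.

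**Figure D1:**
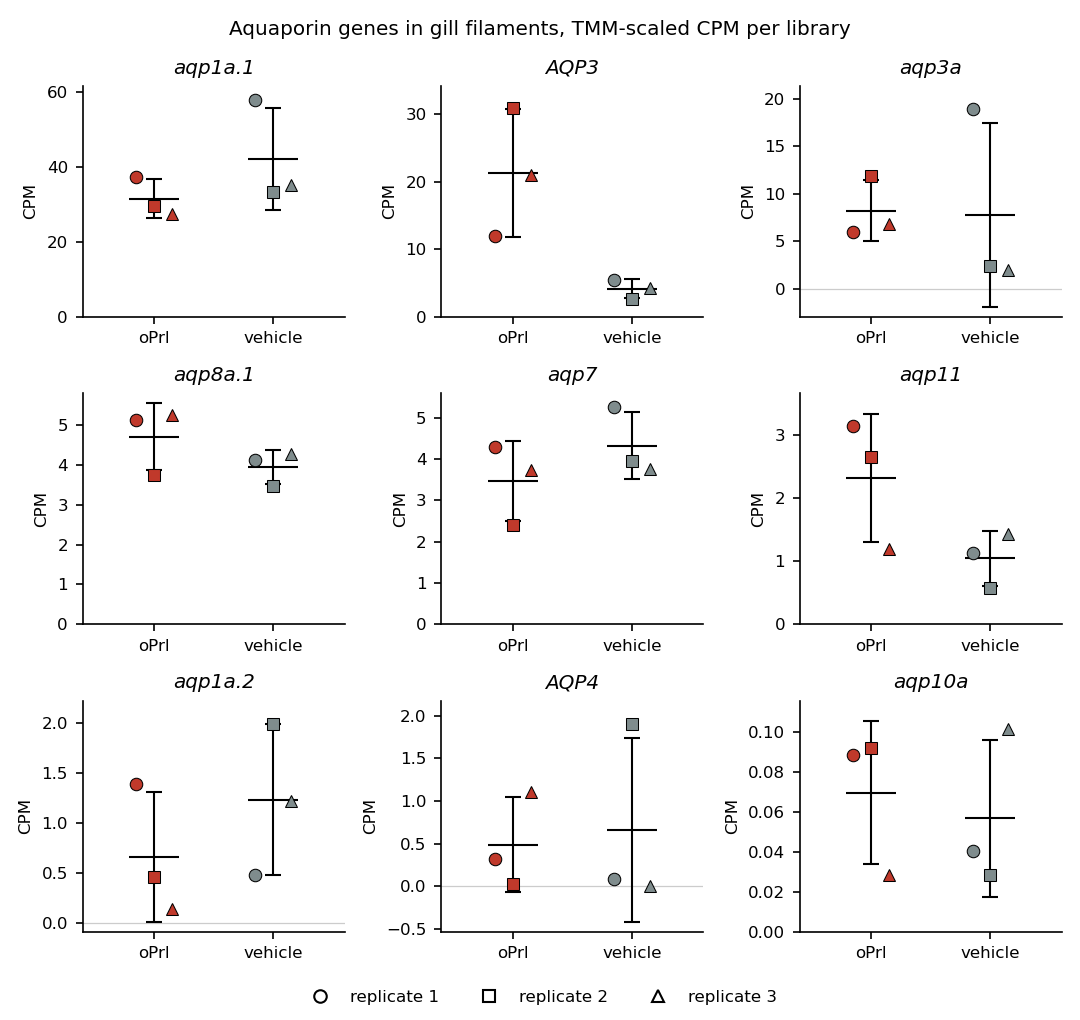
CPM of the 9 aquaporin genes (y axis, a separate linear scale for each gene, with 0 marked) in oPrl-injected fish (red, left) and vehicle-injected fish (grey, right), where each symbol is 1 library, the long bar the group mean and the whisker 1 SD (n = 3), which reaches below 0 where 1 library dominates. AQP3 alone shows no overlap, with 11.9 to 30.9 CPM in oPrl-injected fish and 2.67 to 5.47 CPM in vehicle-injected fish, while in aqp3a vehicle replicate 1 lies above every other library.

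Its near namesake aqp3a (ENSONIG00000015957), a second gene annotated as an aqp3, followed another pattern. It had 5.92, 11.9 and 6.76 CPM in oPrl replicates 1, 2 and 3, against 18.9, 2.33 and 1.98 CPM in vehicle replicates 1, 2 and 3. Vehicle replicate 1 was the highest of all 6 libraries, whereas the other vehicle libraries were the lowest, so that the vehicle group spanned the whole oPrl group. The log2 fold change was 0.08 (SE 0.84, 95% interval -1.87 to 2.03, adjusted p = 0.97, edgeR), which leaves room for a change of either sign. Of the single libraries, vehicle replicate 1 moved this value most when dropped. Without it the log2 fold change of aqp3a was 1.90 (SE 0.41, unadjusted p = 0.00277, adjusted p = 0.083, edgeR), and over its alternatives the adjusted p ran from 0.083 to 0.987. Without oPrl replicate 2, vehicle replicate 2 or vehicle replicate 3 the sign turned, at -0.29, -0.38 and -0.38.

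Counts per gene do not show whether reads of AQP3 and aqp3a were split correctly between them. The ratio of AQP3 to aqp3a reads was 2.02, 2.60 and 3.11 in oPrl replicates 1, 2 and 3, against 0.289, 1.15 and 2.15 in vehicle replicates 1, 2 and 3, so the ratio overlapped between groups through vehicle replicate 3. Summed as if they were 1 gene, a choice made after the values were seen, both had 17.8, 42.7 and 27.8 CPM in oPrl replicates 1, 2 and 3, against 24.4, 5.00 and 6.26 CPM in vehicle replicates 1, 2 and 3. The groups then overlapped through vehicle replicate 1, and the log2 fold change was 1.31 (SE 0.63, adjusted p = 0.282, edgeR).

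The other aquaglyceroporin with appreciable reads was aqp7 (ENSONIG00000019467), known in mammals for glycerol release from fat cells. It had 4.29, 2.40 and 3.73 CPM in oPrl replicates 1, 2 and 3, against 5.26, 3.95 and 3.77 CPM in vehicle replicates 1, 2 and 3. The ranges overlapped, and the log2 fold change was -0.32 with a 95% interval of -1.06 to 0.43 (adjusted p = 0.628, edgeR). Of the 6 adipocyte markers listed, 2 were matched, and lpl, which other cells also express, had 19.7 to 57.9 CPM with oPrl and 27.0 to 57.6 CPM with vehicle. The part of fat cells in the aqp7 reads was not tested. For aqp10a (ENSONIG00000006266), an intestinal glycerol channel in mammals, there were 11 reads in all, 3, 3 and 1 in oPrl replicates 1, 2 and 3 and 1, 1 and 2 in vehicle replicates 1, 2 and 3, too few to show a difference at this depth.

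Among the water channels, aqp1a.1 (ENSONIG00000009446), a fish copy of the water channel of red blood cells and vessel walls in mammals, had 37.5, 29.6 and 27.5 CPM in oPrl replicates 1, 2 and 3, against 58.0, 33.3 and 35.3 CPM in vehicle replicates 1, 2 and 3. Vehicle replicate 1 was the highest library, as it was for aqp3a, and oPrl replicate 1 lay within the vehicle range. Means of aqp1a.1 (± SD, n = 3 each) were 31.5 ± 5.24 CPM after oPrl and 42.2 ± 13.7 CPM after vehicle. The log2 fold change of -0.42, with a 95% interval of -1.01 to 0.17, did not pass the test (adjusted p = 0.398, edgeR), and without vehicle replicate 1 it was -0.13. Red cell and vessel markers were read beside it. The 5 genes matched from the erythrocyte list were the ammonia channel rhag, alas2 of haem synthesis, slc4a1a, slc4a1b and gata1a. They summed to 370 to 879 CPM with oPrl and 350 to 671 CPM with vehicle. Both this sum and that of the vessel markers were highest in oPrl replicate 1, whereas aqp1a.1 was highest in vehicle replicate 1. The 5 genes did not share a pattern. In oPrl replicates 1, 2 and 3 rhag had 374, 42.9 and 288 CPM, and alas2 had 177, 170 and 88.6 CPM. In vehicle replicates 1, 2 and 3 rhag had 156, 110 and 203 CPM, and alas2 had 150, 73.4 and 94.9 CPM. Within each treatment alas2 thus ranked the fish as aqp1a.1 did, whereas the other matched genes did not do so in both treatments. Whether all 5 mark red cells in this tissue was not tested. No globin gene was matched by symbol, and the part of these cells in the aqp1a.1 values was not tested.

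The other copy, aqp1a.2 (ENSONIG00000009444), had fewer reads, with 1.39, 0.461 and 0.141 CPM in oPrl replicates 1, 2 and 3, against 0.486, 1.99 and 1.22 CPM in vehicle replicates 1, 2 and 3. These values rest on 5 to 47 reads with oPrl and 12 to 70 reads with vehicle, and they overlapped. The log2 fold change was -0.90 with a 95% interval of -2.87 to 1.07 (adjusted p = 0.601, edgeR). It was -2.03 without oPrl replicate 1, the highest oPrl library, and -0.38 without vehicle replicate 2, the highest vehicle library. The aqp1a copies thus differed in which fish was high, vehicle replicate 1 for aqp1a.1 and vehicle replicate 2 for aqp1a.2.

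AQP4 (ENSONIG00000009731), the water channel of astrocytes and fast muscle fibres in mammals, was read in some fish and nearly absent from others of the same treatment. There were 11, 1 and 39 reads in oPrl replicates 1, 2 and 3, that is 0.325, 0.0307 and 1.10 CPM, and 2, 67 and 0 reads in vehicle replicates 1, 2 and 3, that is 0.081, 1.90 and 0 CPM. The 0 in vehicle replicate 3 allows up to 3 reads, or 0.153 CPM. The log2 fold change of -0.49 had a 95% interval of -4.01 to 3.03 (adjusted p = 0.892, edgeR), and it was 3.34 without vehicle replicate 2, 0.05 without oPrl replicate 2 and -1.91 without oPrl replicate 3. Skeletal muscle genes also varied widely. All 8 that were matched, ckma and ACTA1 among them, were detected, and they summed to 41.1 to 80.4 CPM with oPrl and 5.20 to 219 CPM with vehicle. Vehicle replicate 2, which had the most AQP4, had the least of them at 5.20 CPM, and vehicle replicate 3, which had no AQP4 read, had the most at 219 CPM. With oPrl the muscle sum was 44.6, 41.1 and 80.4 CPM in replicates 1, 2 and 3, the same order as AQP4. The part of muscle fibres in the AQP4 values was not tested. The other row with this name, aqp4 (ENSONIG00000007255), had no read in any library.

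**Figure D2:**
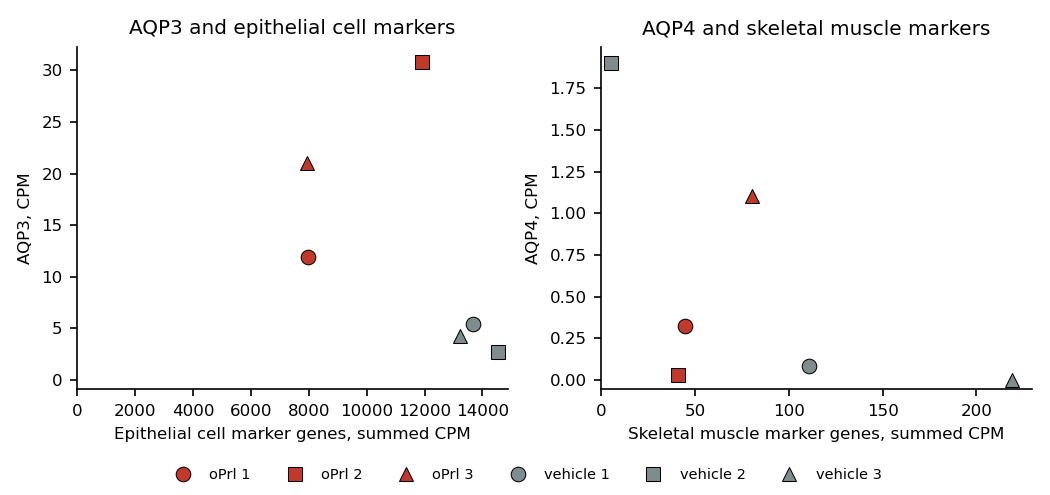
Left, CPM of AQP3 (y axis) against the summed CPM of 11 epithelial cell marker genes (x axis), and right, CPM of AQP4 against the summed CPM of 8 skeletal muscle marker genes, each symbol being 1 library (red oPrl, grey vehicle). The oPrl libraries have more AQP3 at a lower sum of epithelial markers (7927 to 11906 CPM, against 13219 to 14552 CPM with vehicle). Most of that sum comes from krt5 and krt8, and 3 of the 11 genes, tp63 among them, have a log2 fold change above 0. Vehicle replicate 2 has the highest AQP4 at the lowest sum of muscle markers, 5.20 CPM. Among the oPrl libraries, replicate 3 is highest and replicate 2 lowest in both AQP4 and the muscle sum.

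The ammonia- and water-permeable aqp8a.1 (ENSONIG00000019780) had the narrowest range between fish relative to its level. It had 5.15, 3.75 and 5.26 CPM in oPrl replicates 1, 2 and 3, against 4.13, 3.47 and 4.27 CPM in vehicle replicates 1, 2 and 3. The groups overlapped, and the log2 fold change was 0.26 with a 95% interval of -0.36 to 0.87 (adjusted p = 0.638, edgeR), which leaves out a 2-fold difference in either direction. Its relative aqp8b (ENSONIG00000019779) had no read in any library.

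The divergent aqp11 (ENSONIG00000028778) had 3.14, 2.64 and 1.19 CPM in oPrl replicates 1, 2 and 3, against 1.13, 0.568 and 1.42 CPM in vehicle replicates 1, 2 and 3. In oPrl replicates 1 and 2 it lay above every vehicle library, but oPrl replicate 3 lay within the vehicle range. After AQP3 it had the largest estimate above 0, at 1.17 on the log2 scale (SE 0.52, 95% interval -0.04 to 2.37), which did not pass the test (unadjusted p = 0.0567, adjusted p = 0.246, edgeR). When single libraries were dropped it stayed between 0.83 and 1.48, with no adjusted p under 0.204.

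**Figure D3:**
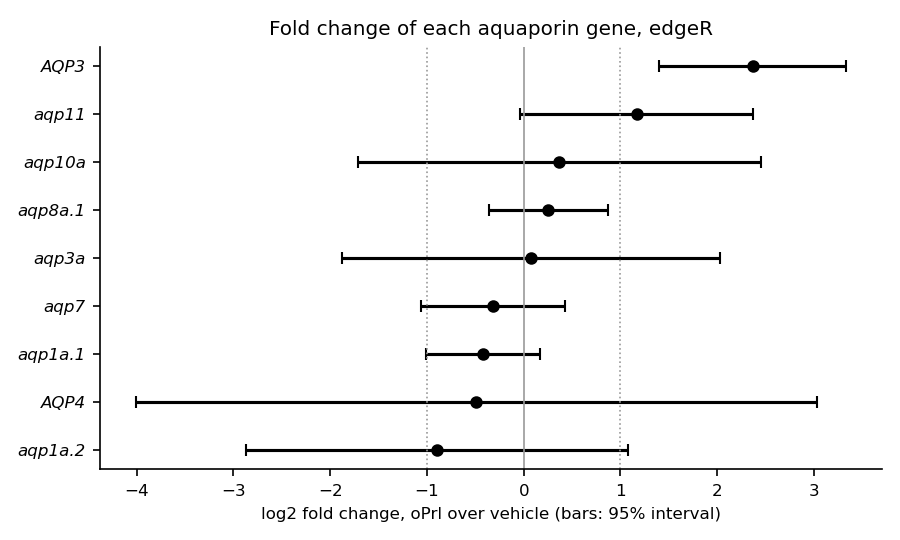
Log2 fold change of each aquaporin gene, oPrl over vehicle (x axis), from edgeR's quasi-likelihood fit, with bars for the 95% interval, a solid line at 0 and dotted lines at the fold threshold of 1 in either direction. The interval of AQP3, 1.40 to 3.34, is the single one that leaves out 0, and that of AQP4, -4.01 to 3.03, is the widest.

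The remaining aquaporin rows of the table were barely read. Over all 6 libraries aqp12 had 9 reads, just under the minimum of 10, with 4, 0 and 0 in oPrl replicates 1, 2 and 3 and 3, 2 and 0 in vehicle replicates 1, 2 and 3, while aqp10a, just over it, had 11. There were 2 reads of aqp9b and 1 of aqp10b, all in vehicle-injected fish, and 0 of aqp4 and aqp8b, which allows at most 0.0849 to 0.0921 CPM in an oPrl library and 0.0852 to 0.153 CPM in a vehicle library at 3 reads each. Neither mipa nor mipb, copies of the lens aquaporin that the symbol rule does not take, reached 10 reads.

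As shares of the reads on the 9 aquaporins, which no scale factor between libraries alters, AQP3 and aqp1a.1 separated the treatments and the other 7 genes overlapped. AQP3 took 17.1% (95% interval, exact Clopper-Pearson, 15.6 to 18.7), 37.8% (35.9 to 39.6) and 31.5% (29.6 to 33.4) of the family's reads in oPrl replicates 1, 2 and 3, against 5.84% (4.92 to 6.88), 5.32% (4.32 to 6.47) and 8.17% (6.57 to 10.02) in vehicle replicates 1, 2 and 3. These intervals cover counting error only, leave out variation between fish, and treat reads as independent. Reads without molecular identifiers are not independent molecules, so the intervals may be too narrow even for counting error. The spread between oPrl fish was wider than any of them. The share of aqp1a.1 was 53.8%, 36.3% and 41.2% in oPrl replicates 1, 2 and 3, against 62.0%, 66.3% and 67.4% in vehicle replicates 1, 2 and 3, so that it was lower in every oPrl library while taking the largest share in all libraries but oPrl replicate 2. A share falls when another rises, and how much of the lower share of aqp1a.1 comes with the higher share of AQP3 was not tested. The CPM of aqp1a.1 itself overlapped between groups. In CPM 29.0% of all genes did not overlap, and no such background was taken for shares within a family. In CPM, the 9 genes summed to 69.7, 81.7 and 66.8 in oPrl replicates 1, 2 and 3, against 93.5, 50.2 and 52.3 in vehicle replicates 1, 2 and 3, and without AQP3 and aqp3a to 51.9, 39.0 and 39.0 with oPrl, against 69.1, 45.2 and 46.1 with vehicle. Both sums overlapped between groups.

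**Figure D4:**
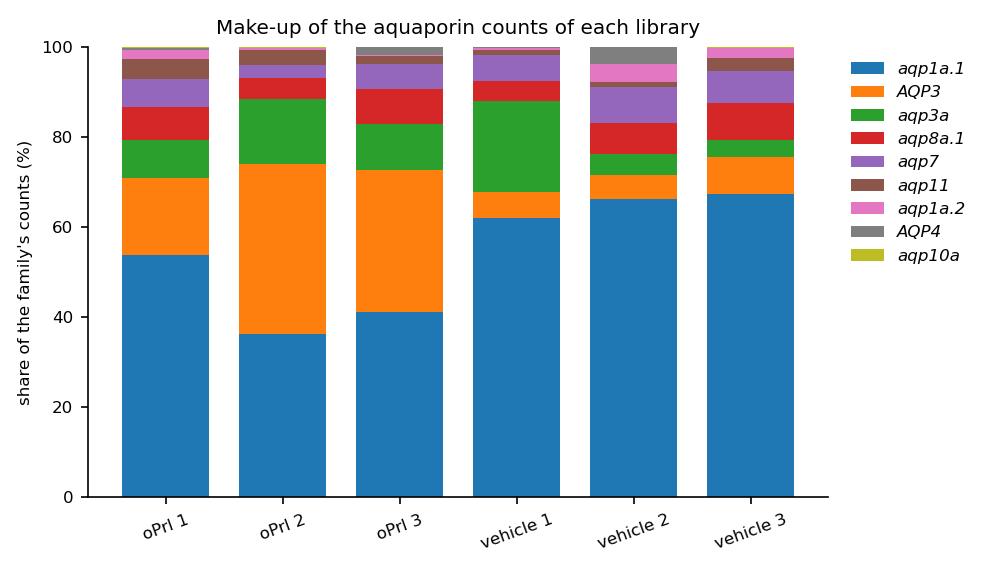
Share of the reads on the 9 aquaporin genes (y axis, %) taken by each gene, with 1 stacked bar per library and the oPrl libraries at the left. The share of AQP3 is 17.1% to 37.8% in oPrl libraries and 5.32% to 8.17% in vehicle libraries, and the share of aqp3a in vehicle replicate 1 is 20.2%, against 3.79% and 4.64% in the other vehicle libraries.

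Cell type markers were read beside AQP3, whose product in mammals is a channel of the basal layers of skin and other epithelia. The 11 epithelial genes matched were all detected and summed to 7974, 11906 and 7927 CPM in oPrl replicates 1, 2 and 3, against 13663, 14552 and 13219 CPM in vehicle replicates 1, 2 and 3. That sum was lower in every oPrl library, the opposite of AQP3, and most of it came from the keratins krt5 and krt8. Of the 11 genes, 8 had a log2 fold change below 0 and 3 above, with a median of -0.14. Groups did not overlap in 5 of them, 4 lower and 1 higher with oPrl, compared with 12.7% lower and 16.3% higher among all genes. None of the 11 was past the thresholds. Of the 4 lower genes, cldn7a was near the floor, at 0.0296 to 0.123 CPM with oPrl. Among the lower were krt5 at -0.81 (adjusted p = 0.0722, edgeR) and evpla, of the cornified layer in mammals, at -0.71 (adjusted p = 0.12). The copy evplb was at -0.04 with overlapping groups. The higher one, tp63, a transcription factor of basal epithelial cells, had 244, 366 and 288 CPM in oPrl replicates 1, 2 and 3, against 187, 215 and 173 CPM in vehicle replicates 1, 2 and 3 (log2 fold change 0.65, adjusted p = 0.0966, edgeR). Of the 10 ionocyte genes, all detected, none was past the thresholds either. Their sum was 2468 to 2661 CPM with oPrl and 2253 to 2832 CPM with vehicle. The largest part of it came from atp1b1b, with means of 1558 CPM with oPrl and 1306 CPM with vehicle. Groups did not overlap in 1 of the 10 with oPrl above and in 2 with oPrl below. Among the latter, trpv6 had a log2 fold change of -1.38 (adjusted p = 0.0403, edgeR). That p is under 0.05, a level that 6.11% of all genes passed. The 3 mucous cell genes matched, agr2, SPDEF and FCGBP, summed to 40.7 to 53.0 CPM with oPrl and 62.6 to 89.0 CPM with vehicle. That sum did not overlap, with oPrl below, as was so for 12.7% of all genes taken singly. In each of the 3 genes the groups overlapped (adjusted p = 0.523, 0.850 and 0.188, edgeR). The 6 leukocyte genes summed to 1486 to 1686 CPM with oPrl and 1533 to 1922 CPM with vehicle. The part of these cell types in the AQP3 values was not tested.

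Genes known from other vertebrates to control aquaporins or move them to the membrane were read as a list of 25 names, of which 19 were matched, as 24 genes. None was past the thresholds, and the median log2 fold change was 0.12, compared with 0.02 over all genes. The names not matched included avpr2, a vasopressin receptor, and snap23, for which the match missed the symbol snap23.1. That gene had a mean of 108 CPM over all libraries, with a log2 fold change of -0.26 and overlapping groups (adjusted p = 0.389, edgeR). The smallest p of the 24 belonged to AVPR1A (ENSONIG00000008870), a receptor for vasotocin, the fish relative of vasopressin. It had 5.65, 7.09 and 7.69 CPM in oPrl replicates 1, 2 and 3, against 12.02, 17.3 and 18.4 CPM in vehicle replicates 1, 2 and 3, with no overlap and a log2 fold change of -1.22 (SE 0.24, adjusted p = 0.0299, edgeR). That p is under 0.05, a level that 6.11% of all genes passed, 2.83% of them all being lower with oPrl. A related receptor gene, avpr1ab, had a log2 fold change of -1.09 with overlapping groups (adjusted p = 0.195, edgeR), and adcy3a, an adenylyl cyclase that makes cAMP, one of -0.75 (adjusted p = 0.192). Membrane fusion and recycling genes such as stx4, VAMP3 and RAB11A had log2 fold changes of 0.31, 0.05 and 0.35. Of these, stx4 and RAB11A did not overlap, with oPrl above (adjusted p = 0.243 and 0.252, edgeR). In the whole list the groups did not overlap in 4 of 24 genes with oPrl above and in 1 with oPrl below. Among all genes these shares were 16.3% and 12.7%. For nfat5b, one of a pair of genes for the tonicity-responsive factor that drives aquaporin genes in mammalian kidney, the log2 fold change was -0.93 with overlapping groups (adjusted p = 0.305), and for its partner copy nfat5a it was 0.23.

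A second list held genes that make, release or carry the small solutes that aquaglyceroporins and Aqp8 pass, with 9 of 12 names matched, as 11 genes. Again none was past the thresholds, and the median log2 fold change was -0.09. Groups did not overlap in 1 of the 11 with oPrl above and in 1 with oPrl below, compared with 16.3% and 12.7% of all genes. First by p was gk5, of the glycerol kinase family, with 20.9, 20.9 and 19.5 CPM in oPrl replicates 1, 2 and 3, against 14.0, 10.5 and 9.06 CPM in vehicle replicates 1, 2 and 3. The groups did not overlap, and the log2 fold change was 0.87 (SE 0.21, adjusted p = 0.0538, edgeR). For pnpla2, the lipase that starts the release of glycerol from stored fat, it was -0.71, also without overlap (adjusted p = 0.134), and for gpd1c, of the glycerol-3-phosphate dehydrogenase family, 0.36 with overlapping groups (adjusted p = 0.449). The urea transporter slc14a2 had 44.4, 1.93 and 30.5 CPM in oPrl replicates 1, 2 and 3, against 15.95, 19.9 and 22.6 CPM in vehicle replicates 1, 2 and 3. It was lowest in the same oPrl library in which AQP3 was highest, the one with the low vascular sum. This was not particular to slc14a2, since that library was the lowest in 7 of the 11 genes of this list.

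The genes whose log2(CPM + 1) most resembled that of AQP3 over the 6 libraries, among 12223 genes with a symbol and a mean of at least 1 CPM, were znf511, zdhhc12a and tada3l, with Pearson's r of 0.996, 0.994 and 0.993. Their log2 fold changes were 0.72, 0.49 and 0.75, all much smaller than that of AQP3, and none was past the thresholds (adjusted p = 0.189, 0.312 and 0.0576, edgeR). The 6 points share the treatment and their library depths, and with so few of them a high r is a description of the pattern only.

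**Figure D5:**
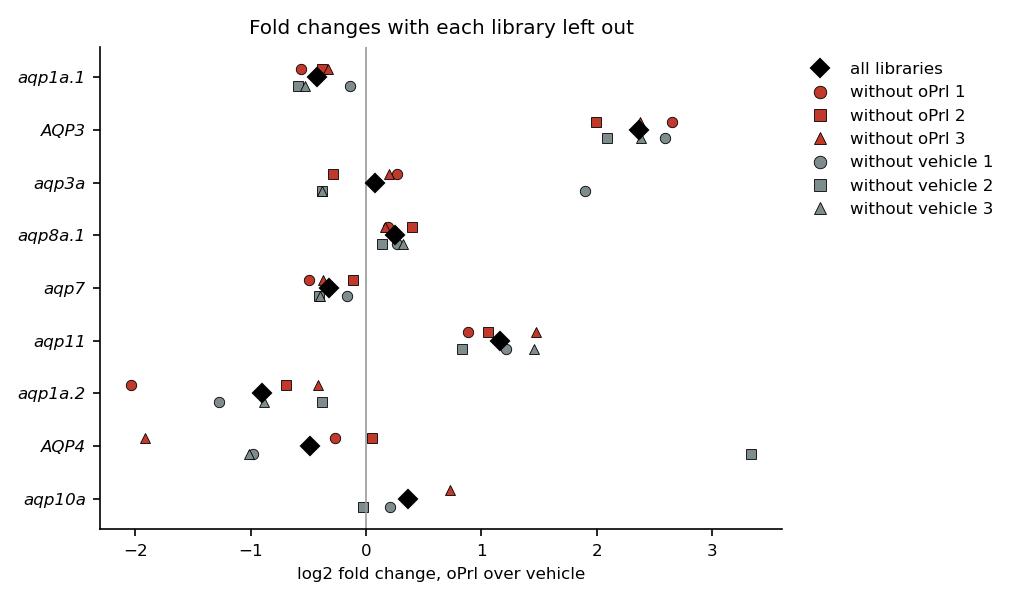
Log2 fold change of each aquaporin gene, oPrl over vehicle (x axis), with all libraries (black diamond) and after dropping single libraries (red, an oPrl library left out, and grey, a vehicle library left out), where aqp10a has fewer points because it falls under 10 counts without some libraries. AQP3 stays between 1.999 and 2.65, whereas aqp3a moves to 1.90 without vehicle replicate 1 and AQP4 to 3.34 without vehicle replicate 2.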

How the data were processed

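The authors trimmed the paired reads with Trimmomatic 0.36, mapped them with STAR 2.5.2b to Ensembl's genome of Nile tilapia, and counted uniquely mapped reads on genes with featureCounts. The deposited values are these raw counts. Neither genome build nor strand setting is given in the sources used here, so reads of overlapping genes may be misassigned. Reads of close gene copies may be misassigned too, since reads of Mozambique tilapia were mapped to the genome of another species. Besides 32591 rows with a gene ID there was 1 without, which took 0.0901% to 0.135% of a library and was left out. Genes with at least 10 counts over all libraries were compared by edgeR 4.0.16 under R 4.3.3 (TMM, quasi-likelihood test, Benjamini-Hochberg over all genes tested), oPrl over vehicle, with no covariate. Standard errors and 95% intervals come from the fold change, F and its degrees of freedom. DESeq2 1.42.0, the study's tool, was an alternative, beside other scale factors, filters, a robust fit, a block for replicate number, further thresholds and dropping single libraries. Libraries within a treatment differed by more than sampling noise (chi-square per degree of freedom of 26.3 to 98.6), and each is a separate fish.

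Every aquaporin with at least 10 counts is named. From the lists of partner genes, the called members or else the 3 of smallest p are named, as are the 3 genes most like the aquaporin of smallest p, and other genes named were chosen after their values were seen. The aquaporins and lists were chosen with earlier results of these data known. List names were matched to symbols, allowing a trailing a, b or c and number, so a symbol with another suffix, such as snap23.1, was missed. Coordinates, gene lengths and sequences were not used here.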

Additional observations from a re-analysis of the deposited data

How the results depend on the processing

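Under edgeR's quasi-likelihood test 0 of 9 aquaporins were called, and this held with DESeq2's size factors, library totals, either other count filter, the robust fit, the replicate block and each library left out (0 in each). DESeq2 called 1, as did edgeR at an adjusted p under 0.05, with or without the fold minimum, and in each case it was AQP3. Over all genes the count of 349 became 1496 with DESeq2, 1520 at an adjusted p under 0.05 and 1147 with the fold minimum as well. It was 0 to 215 with a library left out; the 0, without vehicle replicate 1, came with 4154 genes at an unadjusted p under 0.05. Scaling by library totals moved the median over all genes to 0.19 on the log2 scale and the share of higher calls to 70.9%, compared with 51.003%, and gave AQP3 2.52 (adjusted p = 0.0113).

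Among single genes, aqp1a.1, AQP3, aqp8a.1, aqp7, aqp11 and aqp1a.2 kept their sign under every alternative listed for them. With a library left out, aqp3a ran from -0.38 to 1.90, AQP4 from -1.91 to 3.34 and aqp10a from -0.025 to 0.73, and each turned its sign at least once; the cause was not tested. No pairing of the fish by replicate number was seen, though 3 libraries per treatment are too few to exclude one. Deviations of same-numbered libraries correlated at -0.09, -0.10 and -0.02, and none of the 6 libraries correlated best with its own number in the other treatment. With the number as a block 30 genes were called, AQP4 turned to 0.77, and AQP3 had 2.31 (adjusted p = 0.0694). Shares per kilobase were not run, since no gene lengths were at hand. Depth limits aqp10a, with 11 reads in all. AQP4 and aqp1a.2 had 120 and 173 reads in all.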

Other observations

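Vehicle replicate 1 had 8.11 times as much aqp3a as the next vehicle library. Of 17629 genes that averaged 1 CPM or more, 42, aqp3a included, had so large a ratio or a larger one. This count was made after the values of aqp3a had been seen.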
